A study of Papio anubis with 767 samples.

Results

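The 28 genes described here carry the symbols NDUFA, NDUFB, NDUFC, NDUFS or NDUFV followed by a number, the naming scheme of the nuclear-encoded subunits of respiratory complex I. They were all the rows, of 29202 in the deposited expression table, whose symbol begins in that way, and 20432 rows carry a symbol of their own. The 10 other RefSeq symbols of the same form, NDUFA3, NDUFA7, NDUFA9, NDUFA11, NDUFB1, NDUFB8, NDUFB9, NDUFC2, NDUFS5 and NDUFV2, were not analysed here. Of the 28, 13 belong to the matrix arm of the complex, 13 to the membrane arm, and 2 (NDUFA4 and its paralogue NDUFA4L2) are named after complex I but are not counted among its subunits today.

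RNA of 64 tissues was sequenced in 12 male baboons, given in the labels as Papio anubis and Papio anubis hamadryas, aged 5 to 6 years, kept under 12 h of light per day and fed on a schedule. Animals were perfused before the tissues were taken, and 1 animal was taken every 2 h, at ZT0 (lights on), ZT2 and so on up to ZT22. Of the tissues, 22 are parts of the brain, 35 are peripheral and 7 belong to the eye or are glands, each with 12 libraries except the iris, which has 11. A difference between times is therefore also a difference between single animals, and all p-values measure the spread between animals.

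Complex I takes electrons from NADH in the mitochondrial matrix, passes them along a chain of iron-sulfur clusters to ubiquinone, and pumps protons across the inner membrane. Its catalytic core subunits are partly encoded in the nucleus and partly in the mitochondrial genome, and they are surrounded by supernumerary subunits that the assembly and stability of the complex depend on. Striated muscle, kidney tubules and neurons are known for a high content of mitochondria, and complex I defects are a common cause of Leigh syndrome and of mitochondrial cardiomyopathy.

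Values are FPKM, reads per kilobase of gene model scaled for library size, as made by the authors, and tests were run on log2(FPKM + 0.5), a scale that understates the change of low genes. Depth, as reads assigned to genes, had a median of 8.26 M and ran from 32790 in 1 amygdala library to 31.8 M, the second lowest being 1.04 M. By marker genes, 74 libraries held high levels of another cell type's markers and 44 stood far from the other libraries of their tissue. Adrenocortical markers had a median of 2502 FPKM in the libraries labelled adrenal medulla and 0.099 FPKM in those labelled adrenal cortex, against the labels. Gastric mucosa markers had a median of 1317 FPKM and smooth muscle markers 52.7 FPKM in the libraries labelled smooth muscle, while smooth muscle markers had 3326 FPKM in those labelled adrenal cortex, 2115 FPKM in stomach fundus and 1486 FPKM in those labelled omental fat, where adipocyte markers had 152 FPKM. A comparison of variable genes between tissues pointed to another animal than the labelled one in 93 libraries of 21 tissues, among them every library of ascending colon, descending colon, duodenum, stomach fundus, testicles and thyroid. In these 6 tissues all 12 libraries pointed to the animal taken 2 h before the labelled one, so that a peak time given there, by the labels, may be 2 h late. In bulk tissue, fewer cells of a type and less RNA per cell cannot be told apart. Gene models of the members were 210 to 5187 bases long and differ in how much untranslated sequence they hold, which limits comparison of levels between genes, and reads shared with processed copies of these genes could not be separated.

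Averaged over the 63 tissues with 12 libraries, 21 of the 28 genes were called for a 24 h curve (limma, adjusted p under 0.05). The background was 62.2% of 12055 genes, so the members' share is close to that of all genes. Among the called members, 16 had a fitted peak between ZT4 and ZT8, the middle of the light phase, and 5 had one between ZT16 and ZT20, in the dark. Over all genes the same windows held 34.7% and 22.8%. The midday genes were NDUFB7, NDUFS7, NDUFA13, NDUFS8, NDUFV1, NDUFA2, NDUFA4L2, NDUFB11, NDUFS6, NDUFB5, NDUFB2, NDUFV3, NDUFB10, NDUFS3, NDUFB4 and NDUFA8, with fitted peaks from ZT5.24 to ZT7.21. The night genes were NDUFS1, NDUFA5, NDUFS4, NDUFB6 and NDUFA12, with fitted peaks from ZT16.7 to ZT19.3. The other 7, among them NDUFB3, NDUFA6, NDUFA10, NDUFA1, NDUFC1 and NDUFA4, were not called.

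The core subunits of the matrix arm, among them the carriers of the flavin and the iron-sulfur clusters, held genes of both times. NDUFS7, the subunit with the terminal iron-sulfur cluster next to the quinone site, deviated from its tissue means on the log2 scale by 0.06 at ZT0, 1.33 at ZT2, 1.40 at ZT4, 1.20 at ZT6, 0.40 at ZT8 and 0.44 at ZT10. In the dark phase its deviation was -0.06 at ZT12, -0.59 at ZT14, -0.83 at ZT16, -0.85 at ZT18, -0.93 at ZT20 and -1.57 at ZT22. Every animal from ZT2 to ZT10 was above the tissue mean and every animal from ZT12 to ZT22 below it. The fitted peak was 5.18-fold over the trough at ZT5.74 ± 0.55 h (SE), with an amplitude of 1.19 ± 0.17 (log2, SE, adjusted p = 0.00051 by limma).

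NDUFS8, which carries iron-sulfur clusters, had a 2.86-fold curve, and NDUFV1, the NADH- and flavin-binding entry point, had a 2.57-fold curve. NDUFS3, a core subunit of the quinone module, was called with a smaller curve of 1.35-fold. NDUFS1, the largest iron-sulfur subunit, moved the other way: its deviation was lowest at ZT6, at -0.44, and highest at ZT16, at 0.25. Its fitted peak fell at ZT18.1 ± 0.62 h (SE), 1.40-fold over the trough (amplitude 0.24 ± 0.039 log2, SE, adjusted p = 0.000896 by limma). Of the 6 measured core subunits, 5 were called, 4 with a midday peak and 1 with a night peak. Over all genes the shares were 62.2% called, 34.7% with a midday and 22.8% with a night peak. These small counts are not read as a trait of the core.

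Among the 7 supernumerary subunits of the matrix arm, NDUFA2, which has a thioredoxin-like fold, had the widest curve, 2.24-fold with its peak at ZT6.45. NDUFS6, a zinc-binding subunit, was called at 1.58-fold and NDUFV3, which sits beside NDUFV1, at 1.37-fold, both with midday peaks. NDUFA5, NDUFS4 and NDUFA12 were called with night peaks. NDUFA5 reached 1.31-fold, NDUFS4, a gene known for mutations in Leigh syndrome, 1.22-fold, and NDUFA12 1.13-fold. NDUFA6, a member of the LYR protein family, was not called (adjusted p = 0.68 by limma). In all, 11 of 13 matrix arm genes were called, 7 with a midday and 4 with a night peak, against 62.2%, 34.7% and 22.8% of all genes.

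The membrane arm held the widest curve of all members. NDUFB7, a cysteine-motif protein of the intermembrane space, deviated by 1.46 at ZT4 and by -1.66 at ZT22, its highest and lowest animals. Its order over the animals was close to that of NDUFS7, with ZT2, ZT4 and ZT6 above 1.2 and each animal from ZT14 on below -0.5. The fitted curve was 5.37-fold with a peak at ZT5.86 ± 0.56 h (SE) and an amplitude of 1.21 ± 0.18 (log2, SE, adjusted p = 0.000514 by limma), the 12th largest amplitude of the 12055 genes. NDUFS7 ranked 15 and NDUFA13 ranked 49.

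NDUFA13, also known as GRIM-19, had a 3.66-fold curve with its peak at ZT6.02. NDUFB11, encoded on the X chromosome in humans, was called at 1.59-fold, NDUFB5 at 1.54-fold and NDUFB2 at 1.44-fold. NDUFB10, NDUFB4 and NDUFA8 followed with 1.35-fold, 1.19-fold and 1.18-fold. NDUFB6 was the only called membrane arm gene with a night peak (1.20-fold, ZT19.3). NDUFA1, NDUFA10, NDUFB3 and NDUFC1 were not called. NDUFB3 had its highest animals at ZT20 and ZT22 and its lowest at ZT2 and ZT10, so that neighbouring times went opposite ways. In all, 9 of 13 membrane arm genes were called, 8 with a midday peak, against 62.2% and 34.7% of all genes. Both arms thus held called genes of either time, the membrane arm only NDUFB6 for the night.

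NDUFA4, now assigned to cytochrome c oxidase, was the flattest gene of the set. Its 12 animal means lay between -0.07 and 0.08 (log2), and the fitted curve was 1.01-fold (amplitude 0.0085 ± 0.028, SE, adjusted p = 0.96 by limma). NDUFA4L2, a hypoxia-induced paralogue, was called with a midday peak of 1.65-fold (adjusted p = 0.0199 by limma). It is a gene of few reads, with a median of 4 per library and 84 libraries at 0, and its animals were scattered, with -0.24 at ZT8 beside 0.39 at ZT10.

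**Figure D1:**
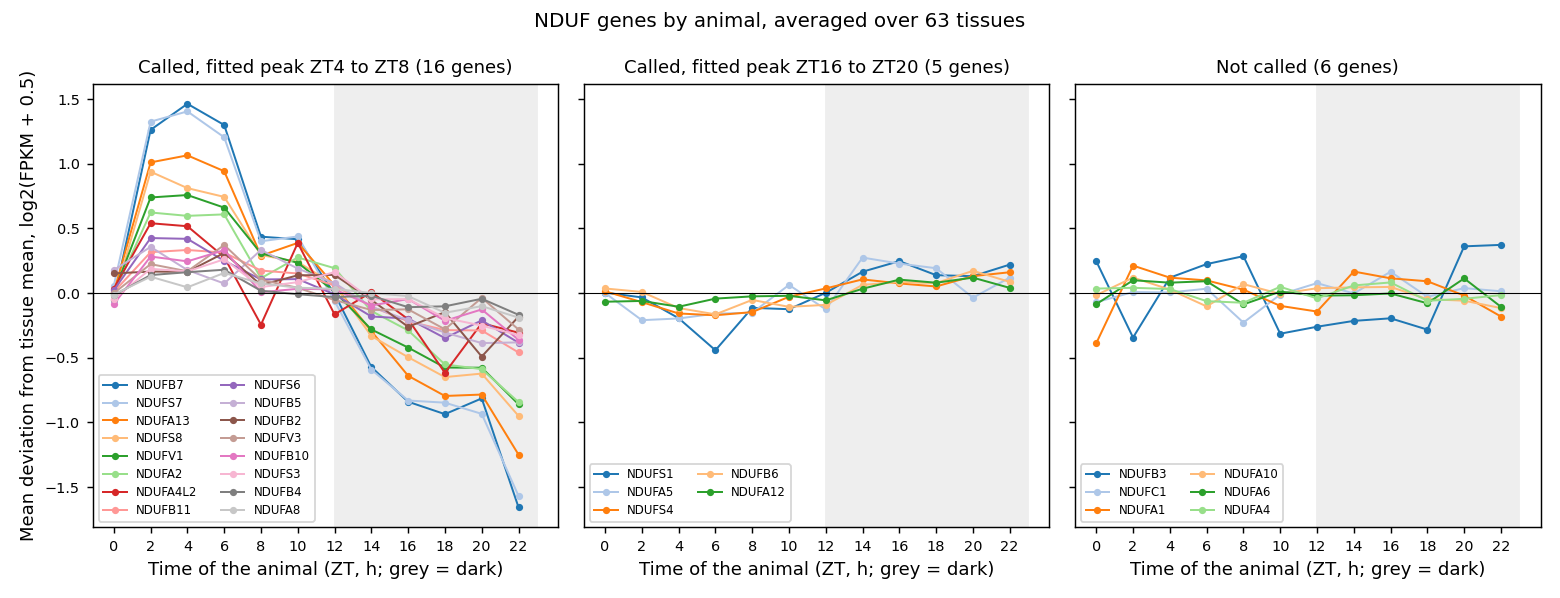
Deviation of 27 NDUF genes from their tissue means, averaged over 63 tissues (vertical axis, log2), for the 12 animals in order of their sampling time (horizontal axis, grey for the dark phase), with 1 line per gene and 1 panel per call. The 16 midday genes range from NDUFA8 (1.18-fold) to NDUFB7 (5.37-fold), while the 5 night genes and the 6 genes shown as not called stay within 0.5 of their tissue means.

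In these animal means the RNA of some subunits went opposite ways, although the subunits are built into the complex in equal numbers. NDUFB7 and NDUFS1 serve as an example, picked as the called midday and night genes with the widest curves. A wide difference between them follows from that choice, and no change of 1 subunit relative to another was tested. Neither gene was called in the fit with the library axis described below. The log2 difference NDUFB7 minus NDUFS1 was -0.06 in the animal of ZT0, 1.30 at ZT2, 1.66 at ZT4, 1.74 at ZT6, 0.55 at ZT8 and 0.54 at ZT10. It was -0.01 at ZT12, -0.74 at ZT14, -1.09 at ZT16, -1.07 at ZT18, -0.94 at ZT20 and -1.88 at ZT22. The median over all 28 members moved far less and lay between -0.19 at ZT22 and 0.20 at ZT6. These are ratios of RNA, and no protein was measured.

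The heart went the same way in single libraries. It is among the tissues averaged above, so it is not separate from those means. NDUFB7 had 75.9 FPKM at ZT0, 157 at ZT2, 138 at ZT4, 52.2 at ZT6, 37.3 at ZT8, 20.8 at ZT10, 13.9 at ZT12, 11.9 at ZT14, 3.75 at ZT16, 4.29 at ZT18, 5.31 at ZT20 and 2.25 at ZT22. NDUFS1 in the same libraries had 603, 532, 428, 569, 650 and 585 FPKM at ZT0 to ZT10, and 757, 749, 796, 777, 776 and 699 FPKM at ZT12 to ZT22. All 6 heart libraries of ZT12 to ZT22 were thus above all 6 of ZT0 to ZT10 for NDUFS1 and below all 6 for NDUFB7. The library axis described below had scores of 1.55, 1.95 and 2.17 in the heart at ZT0, ZT2 and ZT4. Its lowest heart score was -2.99, at ZT22. With the axis score as a covariate, 0 pairs of member and tissue were called, those of the heart included. Without it, 16 of 28 members were called in the heart, against 42.4% of 11138 genes. NDUFB7 had a 25.9-fold curve there with its peak at ZT4.85, and NDUFS1 a 1.59-fold curve with its peak at ZT16.3 (adjusted p = 0.0176 and 0.0186 by limma).

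**Figure D2:**
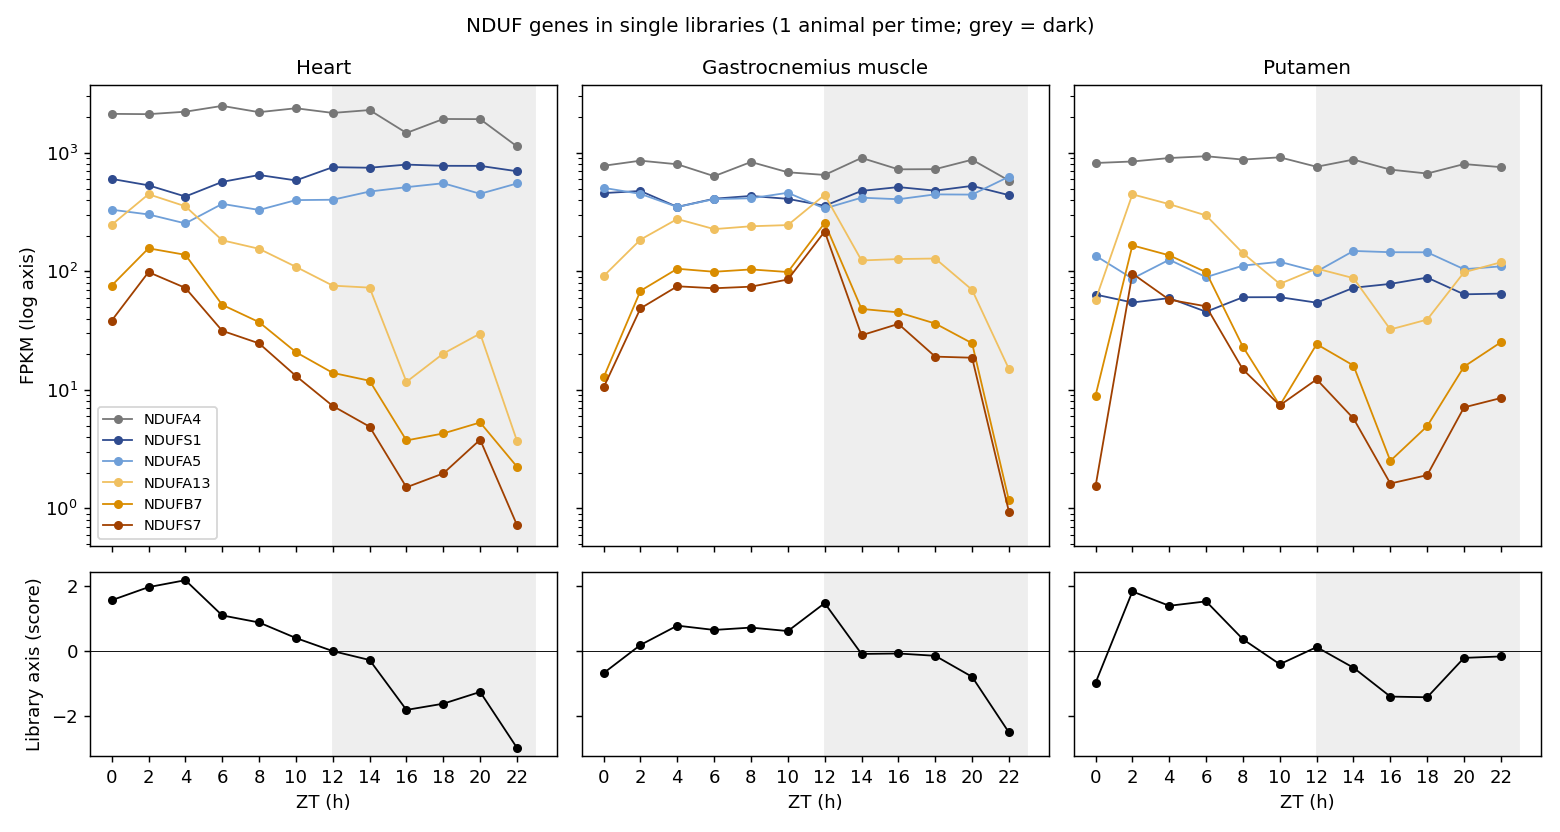
FPKM of 6 NDUF genes (upper panels, log axis) and the score of the shared library axis (lower panels) in the single libraries of heart, gastrocnemius muscle and putamen, against sampling time with 1 animal per time (grey for the dark phase). NDUFB7, NDUFS7 and NDUFA13 follow the axis score in each tissue, while NDUFA4, NDUFS1 and NDUFA5 stay within a narrow band.

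A shared library axis moved together with these curves. It is the leading principal component of the expression of 12052 genes, each taken relative to the mean of its tissue, computed without the members, the related gene lists and the clock genes, and it held 29.4% of the variance. Its mean per animal was highest at ZT6, at 0.94, and lowest at ZT22, at -1.06, and a 24 h curve took up 84.1% of the variance of those means. With this score as a covariate in the body-wide fit, none of the 28 members was called by limma, against 0.174% of 12055 genes, and adjusted p-values ran from 0.28 to 0.96. At an unadjusted p under 0.05 the fit named 4 members. The median amplitude was 0.12 over the members and 0.083 over all genes with the covariate, against 0.22 and 0.19 without it (log2). Most midday genes lost most of their amplitude, which for NDUFB7 was 0.19 ± 0.096 with the covariate, against 1.21 ± 0.18 without it (log2, SE). NDUFB10 and NDUFB2 kept more, with 0.15 and 0.14, against 0.22 and 0.26 without it (log2). The curves left for NDUFB7, NDUFS7, NDUFA13, NDUFA2 and NDUFB10 pointed away from their midday peaks, with the signs given further below. Night genes had wider errors with the covariate than without it, and kept unequal parts of their amplitude. NDUFS1 had 0.16 ± 0.094 with the covariate, against 0.24 ± 0.039 without it (log2, SE). NDUFB6 had 0.11 ± 0.050, against 0.13 ± 0.025, while NDUFS4 had 0.063 ± 0.055, against 0.14 ± 0.027 (log2, SE). NDUFB3, which was not called in either fit, had 0.61 ± 0.18 with the covariate, the largest of the members, against 0.20 ± 0.097 without it (log2, SE). With a straight-line trend over the sampling times in place of the score, again 0 of 28 were called. Over a single 24 h cycle such a line overlaps with the sine term, so that fit cannot separate trend and curve. The share of all genes called with the trend is not given here, so this count is not read as a trait of the members. Of 18 core clock genes, 17 were called without a covariate and 13 with the axis score.

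Time of day is constant within 1 animal, while the size of a 24 h curve can differ between its tissues. Across the tissues of a single animal, the slope of NDUFB7 on the axis was between 1.15 and 1.53 log2 units per unit of score in the 12 animals. The median slope was 1.42 for NDUFB7, 1.31 for NDUFS7 and 1.18 for NDUFA13. For 20 members the slope was positive in all 12 animals. For NDUFS1 and NDUFA5 the slope was negative in all 12, with medians of -0.15 and -0.20. The share of all genes with the same sign of slope in every animal was not worked out, so these counts are not read as a trait of the members. Across the 28 genes, the median slope and the amplitude in the direction of ZT6 had r = 0.99, as a description of genes that share the same libraries. What the axis stands for was not tested, and time of day, animal and axis cannot be told apart in the animal means. Score and gene values are both deviations from tissue means over the sampling times. Tissues with 24 h curves of different size would also give slopes within 1 animal, so these slopes do not separate axis and time.

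**Figure D3:**
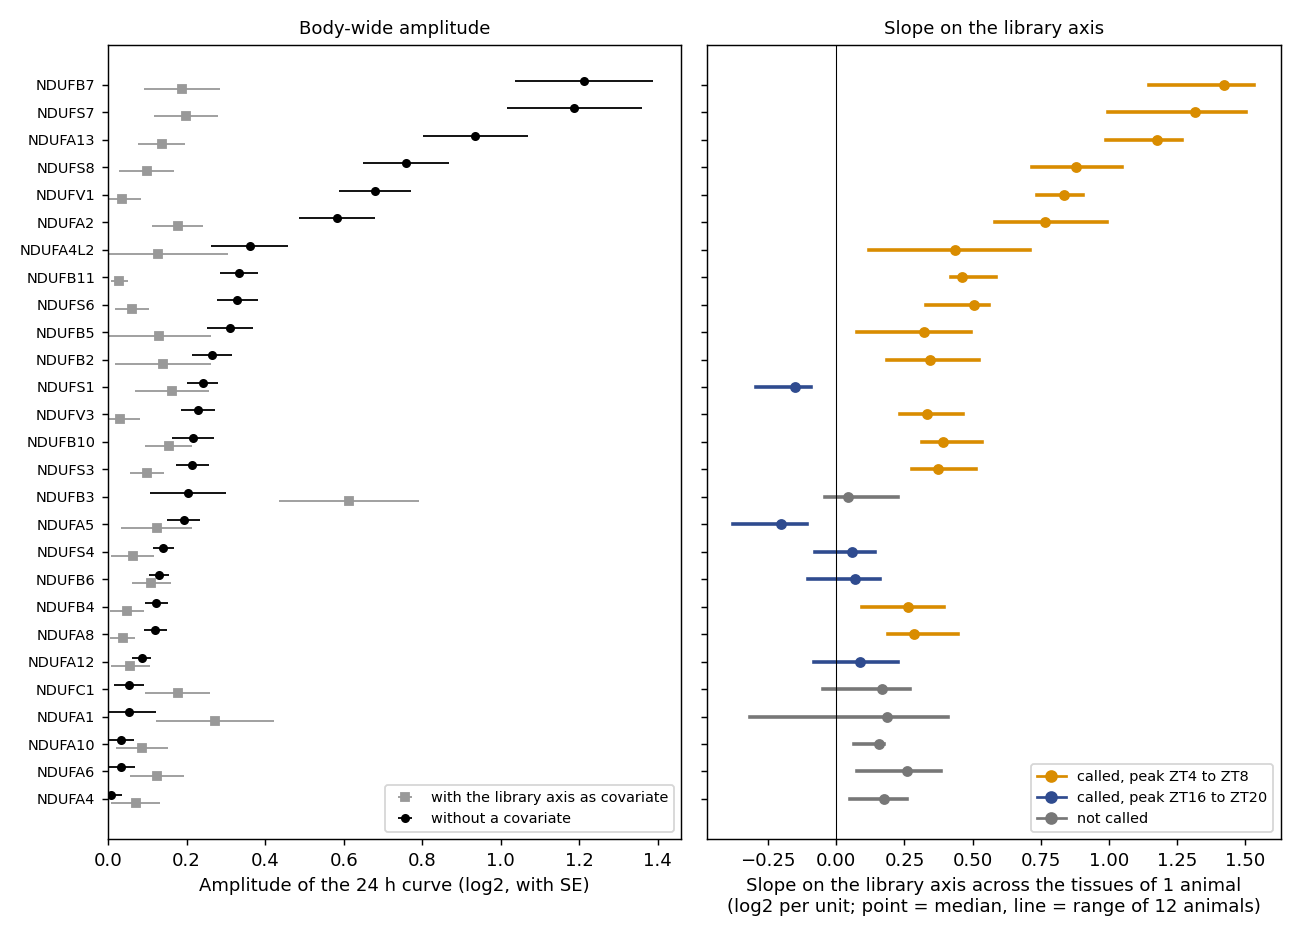
Left, the body-wide amplitude of 27 NDUF genes with its standard error without a covariate (circles) and with the library axis as a covariate (squares). Right, their slopes on the axis across the tissues of 1 animal, as the median (point) and range (line) of 12 animals. NDUFB7, NDUFS7 and NDUFA13 have the largest amplitudes without the covariate and the steepest slopes, NDUFB3 has the largest amplitude with it (0.61), and NDUFS1 and NDUFA5 are the genes whose whole range of slopes lies below 0.

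In brain, 11 of 28 members were called, with a background of 29.6%. In periphery, 19 of 28 were called, with a background of 60.7%. NDUFB7 had a 3.57-fold curve in brain and a 7.56-fold curve in periphery, and NDUFS7 had 3.49-fold in brain and 7.15-fold in periphery. NDUFS1 was called with a night peak in both classes, at 1.25-fold in brain and 1.51-fold in periphery. The difference itself was tested on brain minus periphery within animals, and 2 of 28 members, NDUFB7 and NDUFA13, were called (adjusted p = 0.043 and 0.0414 by limma) against a background of 5.73%. Both calls were lost when the 44 far libraries, or the libraries that matched another animal, were left out. Leaving out the animal of ZT4, ZT8, ZT12, ZT16, ZT20 or ZT22 also left 0 calls, and leaving out that of ZT18 left 1.

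Tissue by tissue, 193 of 1776 pairs of member and tissue were called, 10.9%, against 6.56% of all gene and tissue pairs. Of these, 119 had a peak at ZT4 to ZT8, 13 at ZT16 to ZT20 and 61 at other times. The same split over all called gene and tissue pairs was not worked out, so this split is not read as a trait of the members. In the body-wide fit, 34.7% of all genes were called with a peak at ZT4 to ZT8 and 22.8% at ZT16 to ZT20. The 6 tissues whose libraries all pointed to the animal taken 2 h earlier held 28 of the 193, and the other tissues held 105 calls at ZT4 to ZT8, 10 at ZT16 to ZT20 and 50 at other times. The calls fell in 22 tissues, and 42 tissues had none. Leaving out the animal of ZT4, ZT6, ZT16 or ZT20 left 81, 81, 80 and 109 called pairs. By tissue, the members' calls are to be read against those of all genes. Putamen had 14 called members of 28 (background 13.1%) and lateral globus pallidus 13 of 28 (9.27%), and ileum had 14 of 27 (27.5%). Heart had 16 of 28 (42.4%), the libraries labelled omental fat 14 of 28 (37.7%), stomach fundus 13 of 28 (34.4%) and thyroid 14 of 28 (44.2%), the last close to its background. Without the libraries that matched another animal, 163 pairs were called. NDUFB7 and NDUFV1 were called in 19 tissues each, NDUFS7 in 18, NDUFA13 in 17 and NDUFS8 in 16. NDUFA2, NDUFB11 and NDUFS6 were called in 13 tissues each.

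The direction was shared by tissues with no call, as a description of tissues from the same 12 animals. The fitted peak of NDUFB7 fell before ZT12 in 57 of 64 tissues, and that of NDUFV1 in 56. For NDUFS1 this was so in 4 of 64 tissues, and for NDUFA5 in 6. The called NDUFS1 curves were in bladder, heart, ileum, lungs, stomach fundus and thyroid, with 1.49-fold to 2.45-fold; in the last 2 all libraries pointed to the animal taken 2 h earlier. NDUFB7 curves in the 19 called tissues ran from 5.58-fold in cornea to 116-fold in the paraventricular nuclei. In the paraventricular nuclei 0 of 27 members had their peak at ZT4 to ZT8 and 0 at ZT16 to ZT20. NDUFB7 averaged 113 ± 260 FPKM there (SD, n = 12), a spread wider than the mean. NDUFA1, NDUFA4, NDUFA10 and NDUFB3 were called in no tissue.

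Putamen, a brain region with 14 calls, had 166, 137 and 98.4 FPKM of NDUFB7 at ZT2, ZT4 and ZT6. Its libraries of ZT16 and ZT18 had 2.52 and 4.94 FPKM, and that of ZT0 had 8.96 FPKM. The axis score of the putamen library of ZT0 was -0.99, against 1.82 at ZT2, so that it stood apart from the next animal in the same way. Gastrocnemius muscle had its highest NDUFB7 library at ZT12, with 256 FPKM, where its axis score was also highest, at 1.46. Its library of ZT22 had 1.17 FPKM and a score of -2.51.

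Abdominal muscle, heart, lateral hypothalamus and gastrocnemius muscle had the highest levels, taken as the median over the 26 complex I subunits of the log2 level relative to each gene's 64-tissue mean. These medians were 1.73, 1.56, 1.43 and 1.22. Testicles, bone marrow, optic nerve head and prostate had the lowest, with -1.48, -1.18, -1.17 and -1.15. In abdominal muscle all 26 subunits were above their own mean, and in bladder, skin, bone marrow, prostate and both lymph node tissues none was. The medians over all genes in the 4 highest tissues were between -0.37 and -0.32, so the members' order there does not follow that of all genes.

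The highest mean levels among the members were those of NDUFA4, NDUFB4 and NDUFB2, with 436, 403 and 402 FPKM over all libraries. NDUFA4 was highest in heart, at 2039 ± 387 FPKM (SD, n = 12), followed by abdominal muscle at 1456 ± 413 FPKM (SD, n = 12), and lowest in testicles at 52.6 ± 11.6 FPKM (SD, n = 12). NDUFB4, a small membrane arm subunit, had 1020 ± 157 FPKM in heart, its highest mean outside the iris, and 132 ± 24.1 FPKM in bladder, its lowest (SD, n = 12 each). NDUFB2, also of the membrane arm, had 1423 ± 726 FPKM in lateral hypothalamus and 1408 ± 579 FPKM in abdominal muscle (SD, n = 12 each), which did not differ beyond their spread, and 61.1 FPKM in testicles.

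The lowest mean levels were those of NDUFA4L2, NDUFS8 and NDUFB5, with 11.2, 12.8 and 13.2 FPKM. NDUFB5 was highest in abdominal muscle, at 66.7 ± 23.5 FPKM, and lowest in optic nerve head, at 4.36 ± 1.32 FPKM (SD, n = 12 each). NDUFS8 was highest outside the iris in amygdala, at 56.5 ± 20.9 FPKM (SD, n = 12). NDUFA4L2 was highest in aorta, at 163 ± 111 FPKM (SD, n = 12), where each library had at least 37.3 FPKM. Outside the iris, skin followed with 66.8 ± 33.2 FPKM and oesophagus with 44.4 ± 19.5 FPKM (SD, n = 12 each). Aorta had a median of 2038 FPKM of smooth muscle markers. The libraries labelled adrenal cortex, stomach fundus and omental fat had 3326, 2115 and 1486 FPKM of these markers. Their NDUFA4L2 means were 2.45, 1.28 and 7.89 FPKM, while skin had 15.4 FPKM of the markers. The part of smooth muscle cells in the NDUFA4L2 level was not tested. Kidney cortex libraries had 0 to 1.56 FPKM of NDUFA4L2.

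Iris means rest on single libraries. NDUFA4L2 averaged 139 ± 298 FPKM there (SD, n = 11), with 987 FPKM in the library of ZT8 and 344 FPKM in that of ZT6. For NDUFA13 the iris libraries of ZT6 and ZT8 had 4878 and 17608 FPKM, while the other 9 lay between 31.1 and 374 FPKM. These 2 libraries also held adipocyte and erythroid markers and had axis scores of 5.44 and 7.39, the highest of the iris. The iris was left out of the body-wide and class averages.

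**Figure D4:**
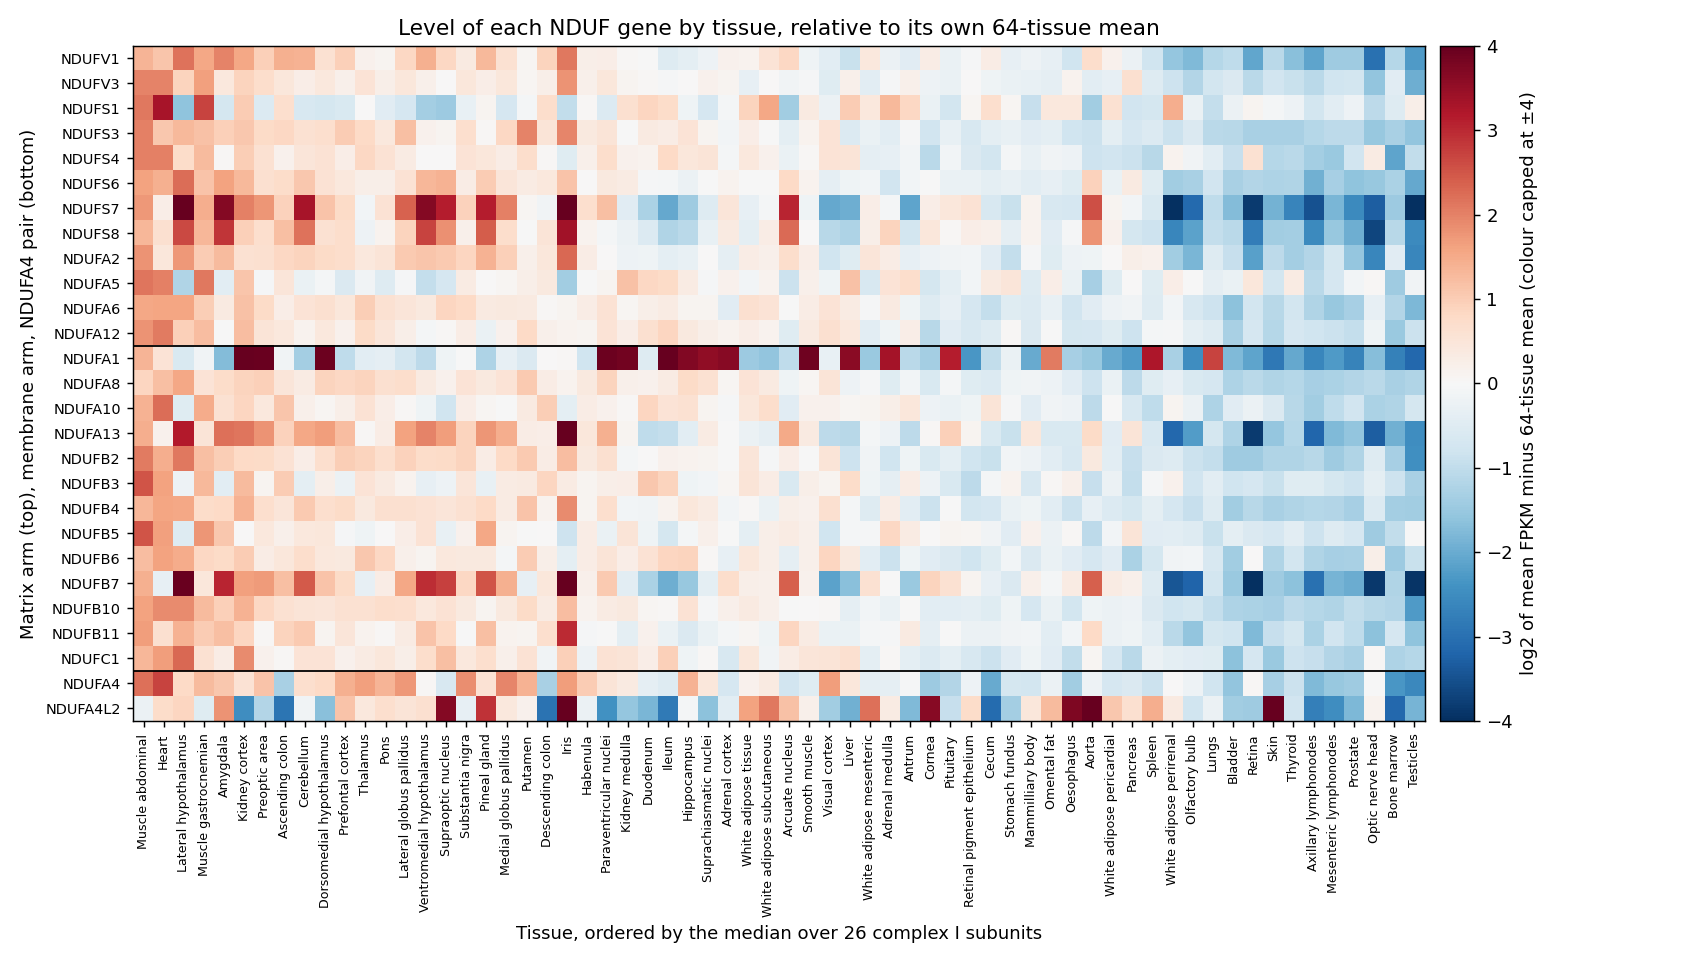
Level of 27 NDUF genes (rows) in each of 64 tissues (columns), as log2 of the mean FPKM minus the gene's own mean over tissues, with red for higher and blue for lower and the colour capped at ±4. Columns run from abdominal muscle (median over 26 subunits 1.73) to testicles (-1.48), and NDUFA1, NDUFS7, NDUFB7 and NDUFA4L2 have the widest spread over tissues.

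The subunits did not all follow 1 tissue order. Across 64 tissue means, pairs of the 26 subunits had a median Pearson r of 0.62, from -0.32 to 0.98, as a description of genes measured in the same libraries. NDUFB7 and NDUFS7 were the most alike pair and NDUFB7 and NDUFS1 the least. NDUFS1 had a median r of 0.16 with the other subunits, the lowest of all, and NDUFB10 had 0.77, the highest. In lateral hypothalamus NDUFS7 had its highest mean of all tissues, 453 ± 310 FPKM, while NDUFS1 had its lowest, 22.3 ± 3.32 FPKM (SD, n = 12 each). NDUFB7 and NDUFA13 were also high there, at 847 and 1153 FPKM.

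NDUFA1, a small membrane subunit encoded on the X chromosome in humans, stood apart from the rest. In 16 tissues its mean was 35.9 to 293 FPKM, and in the other 48 tissues it was 0.97 to 21.9 FPKM with a median of 3.52. Kidney cortex, ileum, preoptic area, dorsomedial hypothalamus, paraventricular nuclei and the libraries labelled smooth muscle were among the 16, and heart (12.4 FPKM) and gastrocnemius muscle (7.66 FPKM) were not. Its median r with the other subunits was 0.29. With a gene model of 210 bases and a median of 8 reads per library, it is among the least precisely measured members.

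Heart libraries, which had a median of 1283 FPKM of cardiomyocyte markers, were compared with the other tissues of the same animals. Of 28 members, 21 were higher in heart and none lower, against 27.7% of 15726 genes higher and 54.1% lower. NDUFS1 had 428 FPKM in the lowest heart library, 675 in the median one and 796 in the highest, against a mean of 81.1 FPKM over the other tissues. The heart was above the mean of the other tissues in all 12 animals, and the lowest heart exceeded the highest of those means. The difference was 3.35 ± 0.061 (log2, SE, adjusted p = 3.79e-15 by limma), the largest of the members, followed by NDUFA4 with 2.82 ± 0.096 and NDUFA10, an accessory subunit with a nucleoside kinase fold, with 2.28 ± 0.071 (log2, SE).

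The 7 members not called in heart were NDUFB7, NDUFA13, NDUFS7, NDUFS8, NDUFA2, NDUFA1 and NDUFA4L2. NDUFB7 was higher than the other tissues in 3 animals and lower in 9, with a difference of -0.65 ± 0.31 (log2, SE, adjusted p = 0.065 by limma). NDUFS7 was higher in 5 and lower in 7, with -0.16 ± 0.32. NDUFB7, NDUFA13, NDUFS7, NDUFS8 and NDUFA2 are also 5 of the 6 members with the widest body-wide curves, and their spread between the 12 hearts enters the test.

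Gastrocnemius muscle had a median of 20157 FPKM of skeletal muscle markers. Of 28 members, 25 were higher there than in the other tissues and none lower, against 32.5% of 15716 genes higher and 52.8% lower. NDUFS1 had 350 FPKM in the lowest library, 449 in the median one and 526 in the highest, against a mean of 84.6 FPKM in the other tissues. It was again the member with the largest difference, 2.78 ± 0.057, and NDUFA5 differed by 2.16 ± 0.072 (log2, SE, adjusted p = 6.83e-15 and 6.84e-13 by limma). NDUFB7, NDUFA1 and NDUFA4L2 were not called.

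Between brain and periphery, 22 of 28 members were higher in brain and 3 lower, against 41.4% of 16305 genes higher and 50.3% lower. NDUFS7 averaged 96.6 FPKM in brain and 21.1 FPKM in periphery (difference 1.99 ± 0.13 log2, SE, higher in 12 of 12 animals). NDUFA13 differed by 1.70 ± 0.14, NDUFB7 by 1.51 ± 0.13 and NDUFA4 by 1.40 ± 0.053 (log2, SE), also in 12 of 12 animals. NDUFS1 averaged 45.8 FPKM in brain and 124 FPKM in periphery, and was lower in brain in 12 of 12 animals (difference -1.05 ± 0.042 log2, SE). NDUFA5 and NDUFB3 were also called lower in brain, with differences of -0.48 and -0.14 (log2). That of NDUFB3 was close to the median of all genes tested, -0.13, and it was lower in 8 of 12 animals. The adjusted p-values of these 7 genes ran from 3.09e-14 to 0.0106 by limma.

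**Figure D5:**
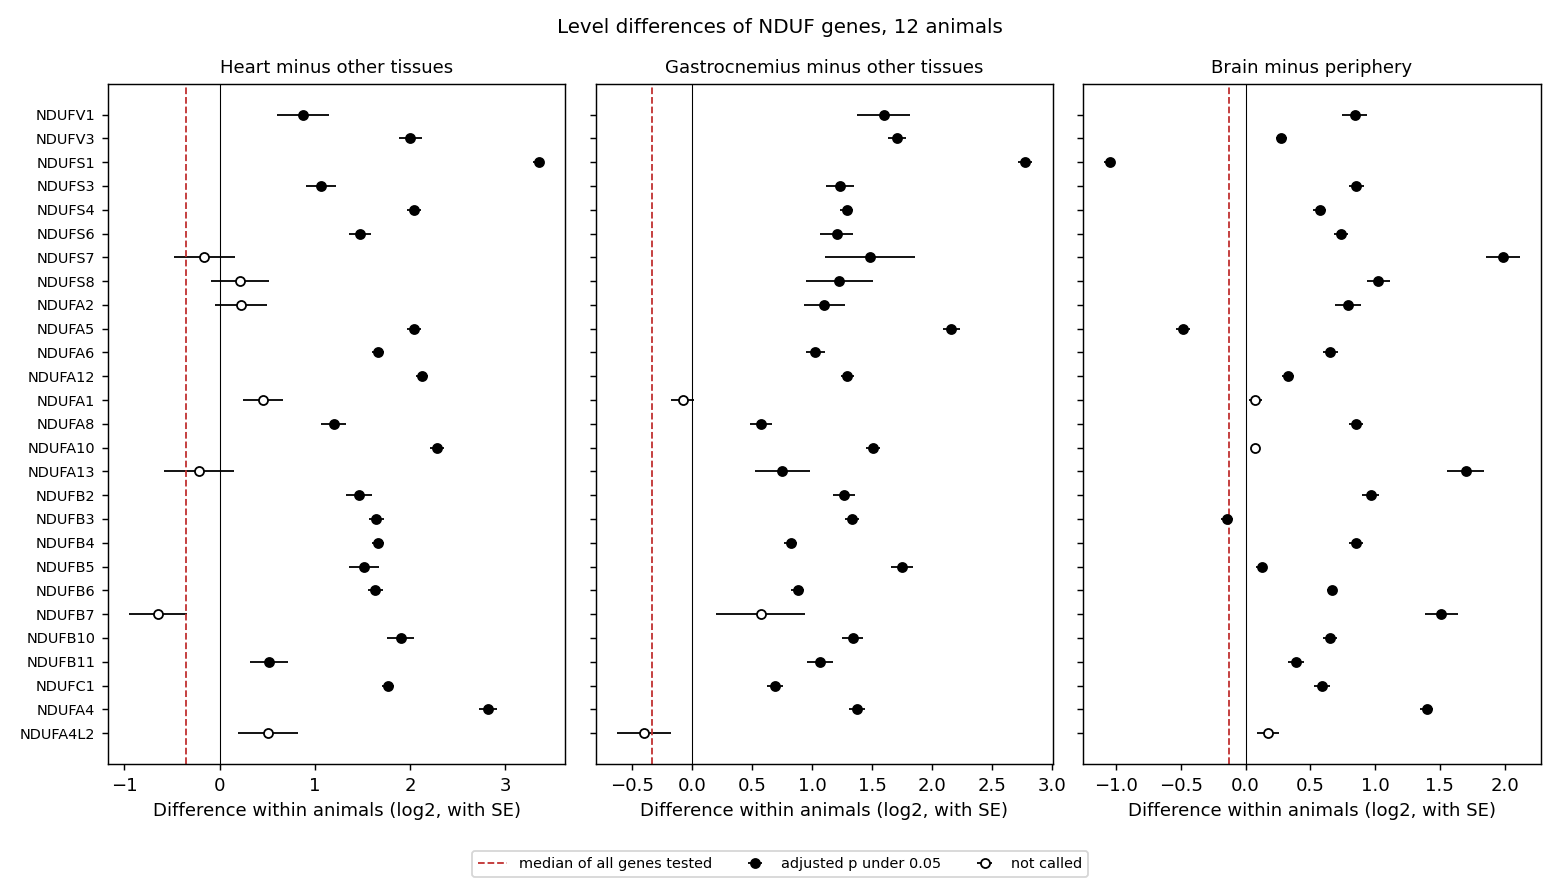
Level differences within animals (horizontal axis, log2, with standard errors, n = 12 animals) for 27 NDUF genes in heart, gastrocnemius muscle and brain, with filled points for adjusted p under 0.05 and a dashed line at the median of all genes tested. NDUFS1 is the rightmost point in heart (3.35) and gastrocnemius muscle (2.78) and the leftmost in brain (-1.05).

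Scaling touched the levels. The median of all genes tested was -0.35 in heart, -0.33 in gastrocnemius muscle and -0.13 in brain (log2), and 27, 27 and 25 of 28 members lay above it. With libraries scaled by total assigned reads, these medians were -0.98, -0.79 and -0.48, and 25, 27 and 25 members lay above them. Under that scaling 17 members were called higher and 6 lower in heart, 21 higher and 2 lower in gastrocnemius muscle, and 15 higher and 9 lower in brain.

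Other genes of the respiratory chain were taken from lists of general knowledge. Their counts stand beside the background of 62.2% of all genes called, 34.7% with a midday and 22.8% with a night peak, and no list was tested against it. Of 15 tested assembly factors of complex I, 5 were called body-wide with a midday peak and 4 with a night peak. TMEM126B, a membrane protein of the assembly machinery, peaked at ZT18.2 (1.39-fold), while NDUFAF3 peaked at ZT5.57 (1.93-fold) and ECSIT at ZT6.27 (2.04-fold). Of 7 mitochondrially encoded complex I genes 1 was called, ND6, with a night peak at ZT19.7 (1.33-fold).

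In complex III, 3 of 6 tested genes had a called midday peak and 2 a night peak, led by CYC1, the cytochrome c1 gene, at 2.22-fold, with UQCRC1 at 1.89-fold and UQCRQ at 2.00-fold. In complex IV the counts were 3 midday and 2 night of 6, with COX7A1 at 2.09-fold and COX4I1 at 1.65-fold at midday, and COX5A at 1.15-fold at night. Of 8 ATP synthase genes, 3 were called at midday, 2 at night and 1 at ZT20.2. ATP5D, the delta subunit, had a 3.53-fold curve at ZT5.86, while ATP5C1, the gamma subunit, peaked at ZT18.1 (1.27-fold) and ATP5J at ZT20.2 (1.21-fold). The complex II gene SDHC had a night peak (1.19-fold). Of 5 tested regulators of mitochondrial biogenesis, ESRRA (2.86-fold, ZT6.28) and GABPA (1.26-fold, ZT17.2) were called. With the axis as a covariate, none of these genes was called.

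The clock genes give a time reference. ARNTL, an activator of the clock, peaked at ZT13.5 (3.38-fold), PER1, a repressor, at ZT3.06 (4.91-fold), and DBP, a clock output factor, at ZT1.60 (3.26-fold). None of the 18 clock genes had a called peak between ZT16 and ZT20, the window of the 5 night genes.

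By tissue level, the genes outside the lists whose 64 tissue means were most like the median of the 26 subunits were MRPL21 (r = 0.95), MDH2 (0.95), MRPL34 (0.91), MRPS24 (0.90) and COX14 (0.89). The genes most like NDUFA4L2 were ADIRF (r = 0.77), MAP3K6 (0.77) and MRC2 (0.74). These values are Pearson r over 64 tissues and share the same libraries.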

How the data were processed

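PolyA RNA was sequenced by the authors, and FPKM values per gene and library were deposited in 1 table. Per the submitters' processing notes, STAR and featureCounts were among the tools; what each did, in which version and on which build is not given in the sources used here. The deposited FPKM values divide into integer reads, with a tolerance of 0.01, and the library factors they imply equal median-of-ratios factors, so scaling was not by total reads. From these reads depth was worked out, and no count model was used.

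Tests used limma 3.58.1 in R 4.3.3 on log2(FPKM + 0.5) for genes with a mean of at least 1 FPKM, with Benjamini-Hochberg adjustment over all genes at 0.05. Rhythms were a cosine and a sine of 24 h, on libraries or on deviations from tissue means averaged per animal. Levels were differences within animals, paired because the labels give 1 animal per time in all tissues. The fits were checked on simulated data. Alternatives covered pseudocount, filter, scaling, variance model, left-out libraries and animals, and covariates. Members and lists were chosen with earlier results of these data known. Named genes are the members (1 enters the counts but is not reported here by name), at most 3 of each related list by body-wide p, and the most alike genes by tissue level. Promoter and protein sequences were not analysed here.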

Additional observations from a re-analysis of the deposited data

Results flagged for a closer look

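For 2 members, the 24 h curve differed between brain and periphery in a test of the difference itself (limma on brain minus periphery within animals, n = 12). This is 2 of 28, against a background of 5.73% of all genes, so the count says nothing particular about the members, and both calls were lost with each set of libraries left out and with 6 of the 12 animals left out in turn. The difference for NDUFB7 had an amplitude of 0.55 ± 0.12 (log2, SE, adjusted p = 0.043), with animal means between -1.12 and 1.20 in brain and between -2.03 and 1.76 in periphery. For NDUFA13 the amplitude was 0.63 ± 0.14 (log2, SE, adjusted p = 0.0414), with animal means between -0.63 and 0.77 in brain and between -1.70 and 1.37 in periphery. The library axis also spanned less in brain, from -0.57 to 0.86 over the animals, than in periphery, from -1.42 to 1.19, and its part in these differences was not tested beyond the fit with the axis as a covariate, which called neither gene.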

How the results depend on the processing

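The cause of each change below was not tested. The body-wide count of 21 members fell to 0 with the library axis or a linear time trend as a covariate. The share of all genes called with the trend is not given here, so counts under the trend are not read as a trait of the members. The brain count of 11 was 0 under both, and the periphery count of 19 was 0 with the axis and 1 with the trend. The 2 members differing in rhythm between brain and periphery became 0 without a filter, without variance moderation, with the axis or the trend, and without the 8 libraries marked approx, the 44 far libraries, the library under 1 M reads, those with other markers or those matching another animal. The 193 pairs of member and tissue became 95 without a filter, 71 without moderation, 0 with the axis and 81 with the trend. Leaving out 1 animal at a time gave 19 to 21 members body-wide, 8 to 15 in brain, 16 to 20 in periphery, 0 to 4 for their difference and 80 to 237 pairs, with 109 without ZT20. Level counts ran from 20 to 23 in heart, 25 to 26 in gastrocnemius muscle and 25 to 26 in brain. Without the pairing by animal (no replicate block) they were 19, 24 and 23.

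Signs that changed were these. With the axis as a covariate, the body-wide amplitude toward each gene's own peak time became -0.050 for NDUFA1, -0.15 for NDUFA2, -0.090 for NDUFA4L2, -0.11 for NDUFA6, -0.011 for NDUFA8, -0.033 for NDUFA10, -0.14 for NDUFA13, -0.041 for NDUFB4, -0.18 for NDUFB7, -0.15 for NDUFB10, -3.7e-05 for NDUFB11, -0.049 for NDUFS3, -0.032 for NDUFS6, -0.17 for NDUFS7, -0.095 for NDUFS8 and -0.034 for NDUFV1. Median-of-ratios factors computed anew within each tissue, in place of the deposited ones, which hold over all 767 libraries, gave -0.026 for NDUFA6 and -0.018 for NDUFA10, and quantile scaling -0.00067 for NDUFA6. Leaving out 1 animal gave -0.017 to 0.09 for NDUFA1 and -0.0067 (without ZT16) to 0.023 for NDUFA4, which was -0.0034 without ZT6 and -0.0036 without ZT8, and -0.38 to 0.047 for the heart difference of NDUFA13. Under scaling by total reads, the heart differences were -0.47 for NDUFA1, -0.74 for NDUFA2, -0.27 for NDUFA4L2, -0.42 for NDUFB11, -0.63 for NDUFS8 and -0.10 for NDUFV1. Those in gastrocnemius muscle were -0.14 for NDUFA8, -0.12 for NDUFB7 and -0.025 for NDUFC1, and those in brain -0.38 for NDUFA1, -0.14 for NDUFA4L2, -0.42 for NDUFA10, -0.17 for NDUFA12, -0.33 for NDUFB5, -0.077 for NDUFB11 and -0.21 for NDUFV3. Quantile scaling gave 0.035 for NDUFA1, 0.018 for NDUFA4L2 and -0.13 for NDUFB4 in gastrocnemius muscle and 0.16 for NDUFS7 in heart. A pseudocount of 0.1 gave 0.054 for NDUFA1 in gastrocnemius muscle. In brain NDUFA1 was -0.011 without libraries with other markers, and without libraries matching another animal NDUFA1 was -0.093 and NDUFA4L2 -0.064.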

Other observations

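The mitochondrially encoded partners of these subunits went the same way as most NDUF genes in heart and brain but not in gastrocnemius muscle, and the difference between both groups of genes was not tested. All 7 measured ND genes, which code for the membrane core of complex I, were higher in heart (median difference 2.65 log2) and in brain (2.70 log2). In gastrocnemius muscle 0 of 7 were higher and 2 lower (median -0.19 log2), while 25 of the 28 nuclear NDUF genes were higher there. All 6 tested complex III genes were higher in heart and in gastrocnemius muscle, as were 7 of 8 and 8 of 8 ATP synthase genes. Of 16 assembly factors, 11 were higher and 2 lower in heart, 9 higher and 3 lower in gastrocnemius muscle, and 8 higher and 6 lower in brain. These counts are from limma at an adjusted p under 0.05, with the same background shares as the NDUF genes.

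The named row most like NDUFA1 over the 64 tissues was an annotated Y RNA, with r = 0.86, as a description.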
